A study of Mus musculus with 4 samples.

Results

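Imprinted growth genes were followed in mouse testicular organoids (TOs) and in mouse testes. The 9 genes, H19, Dlk1, Meg3, Peg3, Peg10, Cdkn1c, Grb10, Mest and Plagl1, were chosen by name, and each was found once among the 32285 genes of the files. They are known to be high before birth and to fall afterwards, so the comparison asks whether the somatic cells of TOs hold them above the level in testes. No library here came from younger testes. The fall itself was therefore not measured, and the genes are called imprinted growth genes rather than marks of immaturity.

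An imprinted gene is expressed mainly from the copy inherited from 1 parent, because DNA methylation laid down in the germ line silences the other. In most tissues Mest, Peg3, Peg10, Plagl1 and Dlk1 are expressed from the paternal copy, and H19, Meg3, Cdkn1c and Grb10 from the maternal copy. Several of these genes limit or promote growth of the fetus and placenta and are switched down together in many organs after birth. The counts do not separate the parental copies, so only the summed level of each gene is described.

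The libraries were 2 of TOs and 2 of testes, each of unsorted cells from whole tissue, made with the 10x Genomics droplet method that counts the 3' ends of transcripts as unique molecular identifiers (UMIs). TOs were rebuilt from dissociated testis cells of neonatal ICR mice, aggregated in microwells, embedded in extracellular matrix and cultured at an air-liquid interface. Both TOs and testes were 28 days old by the design text and the study's methods, whereas the deposited dissociation protocol names TOs of day 21. For TOs these are days of culture after the cells were taken from neonatal mice, and for testes days since birth. At 28 days of culture the groups were therefore not matched in age since birth, and the part of this offset was not tested. The organoids came from 2 independent batches by the study's methods, and the number of animals behind a library is not given. The libraries are called TO 1, TO 2, Testis 1 and Testis 2, and a p-value measures only the spread between libraries of a kind.

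After filters 8713 to 9866 cells remained per library, with median depths of 5482 and 7548 UMIs per cell in TOs and 2549.5 and 3267 in testes. TOs held 8833 and 8008 somatic cells, and testes 2689 and 1680. The libraries shared 30 to 55 cell barcodes per pair. Cells were clustered without the 9 genes, and clusters were named from short marker lists. Levels are given as CPM, the UMIs of a gene per 1000000 UMIs summed over the cells of a type in a library, and can be compared between genes because this chemistry counts transcript ends.

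Markers of other cells moved with the groups in stromal-like, myoid-like and Sertoli-like cells, and their part in the results was not tested. In stromal-like cells the 6 myoid markers summed to 2009 and 583 CPM in TOs and 221 and 185 CPM in testes, while the 6 stromal markers were level at 10956 and 12563 against 10736 and 11124 CPM. In myoid-like cells the stromal markers summed to 5103 and 7140 CPM in TOs and 2537 and 2327 CPM in testes, and the myoid markers to 11396 and 8183 against 18195 and 18490 CPM. A vascular muscle cluster led by Rgs5 held 71 of 2228 and 79 of 1654 myoid-like cells in TOs. In testes it held 213 of 687 and 142 of 425, and the part of this mix was not tested. In Sertoli-like cells the stromal markers summed to 179 and 130 CPM in TOs and to 29.7 and 10.9 CPM in testes, and the Sertoli markers to 7856 and 8181 against 4694 and 4562 CPM. The 7 spermatid markers, a measure of free germ cell RNA, summed to 1956 to 5028 CPM in the testis sums of Sertoli-like, myoid-like and stromal-like cells and to at most 3.83 CPM in those of TOs. In TOs the endothelial-like cells carried 266 and 135 CPM of endothelial markers against 2506 and 1748 CPM in testes, with Pecam1 at 0 in both TO libraries, and 2624 and 1774 CPM of Sertoli markers. That name therefore goes against the data in TOs, and the cells were not tested.

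The genes lie at several imprinted loci of the GRCm38 (mm10) genome. Dlk1 (chromosome 12, 109452823 to 109463336, plus strand) and Meg3 (chromosome 12, 109541001 to 109571726, plus strand) are neighbours with opposite parental expression. H19 (chromosome 7, 142575529 to 142578143, minus strand) and Cdkn1c (chromosome 7, 143458339 to 143461050, minus strand) stand at the distal end of chromosome 7, and Peg3 (6703892 to 6730431, minus strand) at its proximal end. Peg10 (4747306 to 4760517, plus strand) and Mest (30723547 to 30748465, plus strand) are on chromosome 6. Mest overlaps Copg2 on the other strand. Plagl1 (13060504 to 13131694, plus strand) is on chromosome 10 and Grb10 (11930508 to 12038683, minus strand) on chromosome 11.

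Promoters are shown for 4 genes called in myoid-like or stromal-like cells. Each is the 250 bases before a RefSeq transcript start in GRCm38.p6, read 5' to 3' on the gene's own strand, and RefSeq promoters were matched for 6 of the 9 genes. Capitals mark TGCCGC on either strand (GCGGCA), the core bound by ZFP57, a zinc finger protein that keeps imprints methylated, or GGGGGCCCC on either strand, a site bound by PLAGL1 itself. TGCCGC was present in 8.68% of 32851 mouse promoters of the same length and GGGGGCCCC in 0.335%. Mest, Plagl1 and Peg3 are the genes called higher in myoid-like cells of TOs, and Meg3 is the gene called lower in stromal-like cells. The windows of Dlk1 and Grb10, which are not printed, held neither motif.
Mest, chr6:30737800-30738049, plus strand: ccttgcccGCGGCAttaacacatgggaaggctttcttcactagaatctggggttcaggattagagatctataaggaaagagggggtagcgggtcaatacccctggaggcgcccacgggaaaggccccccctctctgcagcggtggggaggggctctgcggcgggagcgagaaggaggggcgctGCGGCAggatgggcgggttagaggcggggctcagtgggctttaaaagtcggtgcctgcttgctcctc
Plagl1, chr10:13090582-13090831, plus strand: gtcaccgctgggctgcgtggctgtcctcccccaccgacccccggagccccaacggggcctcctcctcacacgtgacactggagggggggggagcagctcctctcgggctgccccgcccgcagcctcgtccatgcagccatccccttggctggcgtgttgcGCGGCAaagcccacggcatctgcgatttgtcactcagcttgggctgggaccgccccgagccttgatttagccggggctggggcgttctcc
Peg3, chr7:6730420-6730669, minus strand: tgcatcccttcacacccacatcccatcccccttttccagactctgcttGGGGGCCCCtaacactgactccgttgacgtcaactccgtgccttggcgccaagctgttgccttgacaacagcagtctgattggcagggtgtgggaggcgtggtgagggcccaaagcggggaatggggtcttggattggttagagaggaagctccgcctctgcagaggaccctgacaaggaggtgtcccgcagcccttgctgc
Meg3, chr12:109540746-109540995, plus strand: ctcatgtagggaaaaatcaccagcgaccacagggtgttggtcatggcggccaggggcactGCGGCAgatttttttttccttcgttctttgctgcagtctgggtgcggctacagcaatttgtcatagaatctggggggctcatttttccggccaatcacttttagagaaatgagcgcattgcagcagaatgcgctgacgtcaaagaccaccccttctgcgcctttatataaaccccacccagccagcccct
The Mest promoter held 2 matches of TGCCGC, and those of Plagl1 and Meg3 held 1 each. Peg3 held none of these but 1 match of GGGGGCCCC. The 4 windows held 8 to 19 CpG dinucleotides, where the median promoter held 6. Mest and Meg3 have other RefSeq starts, and a Mest window upstream (7 CpG) and a Meg3 window downstream (0 CpG) held no match. A match is a description of letters, and no methylation or binding was measured here.

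Stromal-like cells held the highest or near highest level of most of these genes. In TOs mean levels in stromal-like cells were 160 CPM for Meg3, 161 for Grb10, 128 for Peg3 and 16 for Dlk1. Meg3 in TOs was as high in Leydig-like cells (214 CPM), Grb10 (137 CPM) and Peg3 (106 CPM) were close in myoid-like cells, and none of these neighbouring values differed beyond the spread between libraries. In testes Meg3 stood at 588 CPM in stromal-like cells and at 225 CPM in Leydig-like cells, with no overlap between the libraries. Peg10 was highest in Sertoli-like cells of both TOs and testes. In macrophage-like cells all 9 were under the minimum for a test, with levels of at most 5.74 CPM apart from Cdkn1c in TO 1 (28.7 CPM, 55 UMIs in 3 cells).

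**Figure D1:**
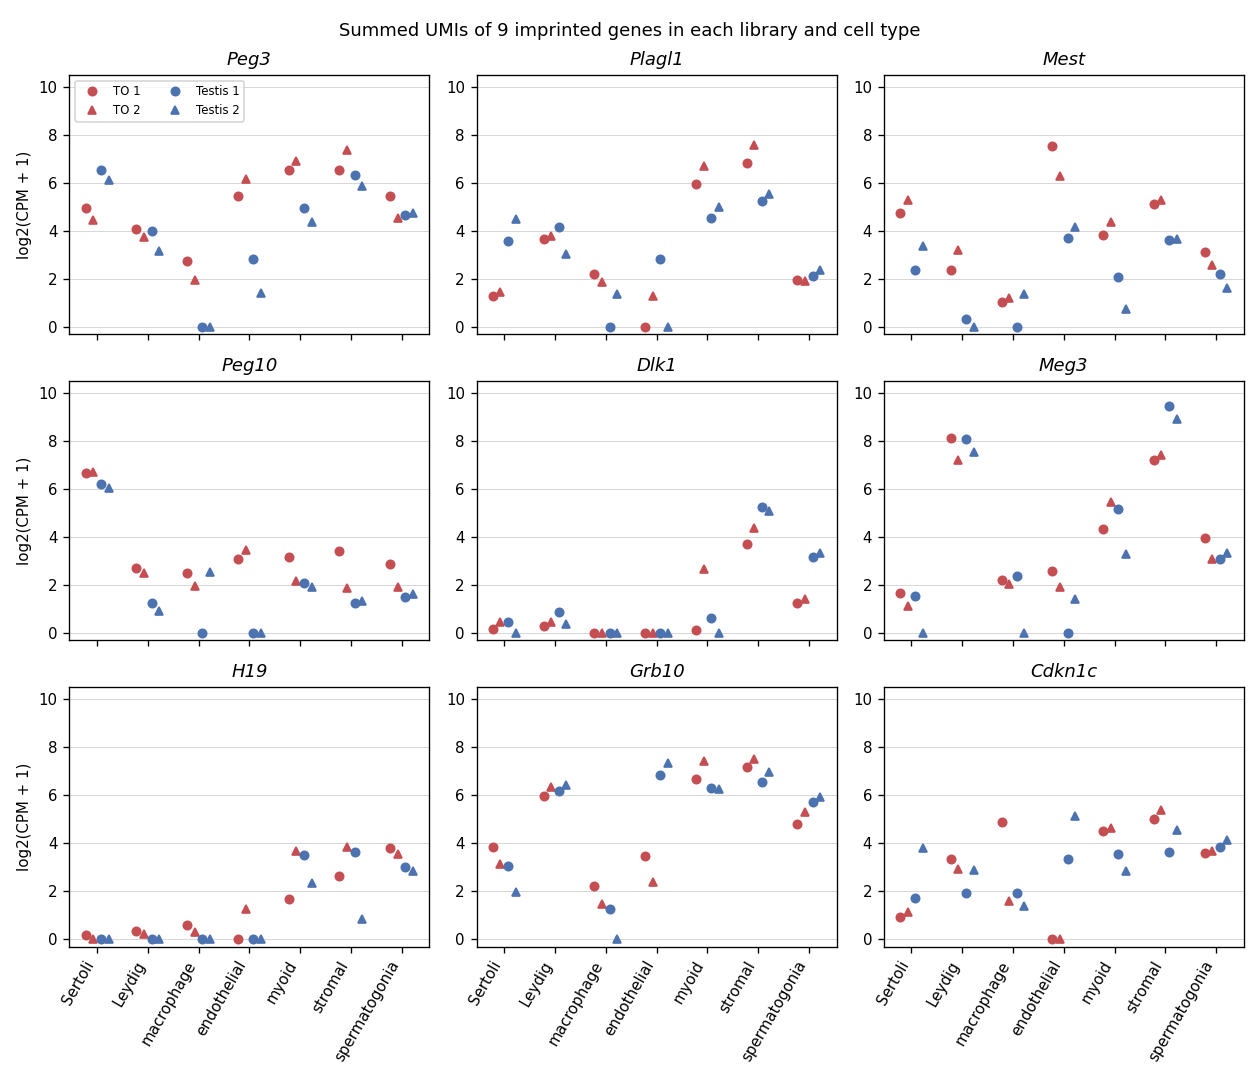
Level of each of the 9 genes (1 panel each) by cell type, as log2 of CPM plus 1, with 1 point per library (red, TO 1 and TO 2, blue, Testis 1 and Testis 2). Plagl1 and Mest are higher in both TO libraries in myoid and stromal cells, Meg3 is highest in stromal cells of testes (699 and 476 CPM), and Peg10 is highest in Sertoli cells.

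TOs were tested against testes in each type with edgeR's quasi-likelihood test, and a gene was called where its log2 fold change was beyond 1 in either direction and its adjusted p (Benjamini-Hochberg) was under 0.01. A gene was left out of a type where the other cells of TOs or of testes held 5 or more times its level. By this rule Peg10 was left out of stromal-like cells, Plagl1, Cdkn1c and Grb10 of Sertoli-like cells, Meg3 and Plagl1 of spermatogonia-like cells, and Mest, Peg3, Peg10, Plagl1 and Cdkn1c of Leydig-like cells. H19 and Dlk1 in Sertoli-like and Leydig-like cells, Meg3 in Sertoli-like cells, Dlk1 in myoid-like cells and Peg10 in spermatogonia-like cells had too few UMIs to be compared. In stromal-like cells 8 genes were compared, 2 were called higher in TOs and 1 lower. Of all genes compared there 15.6% were called, 1.8% higher and 13.8% lower. In myoid-like cells 8 were compared, 3 were called higher and none lower, against 20.9% of all genes (3.95% higher and 16.9% lower). In Sertoli-like cells 3 were compared, 1 was called higher and 1 lower, against 23.7% of all genes (7.64% higher and 16% lower). In Leydig-like cells 2 were compared and 0 were called by edgeR (0 at an unadjusted p below 0.05, and 0 by DESeq2). Of all genes there 2.36% were called, 0.779% higher and 1.58% lower. In spermatogonia-like cells 6 were compared and 1 was called lower, against 8.68% of all genes (0.196% higher and 8.49% lower). In macrophage-like cells 14.8% of the genes compared were called (2.46% higher and 12.3% lower), and none of the 9 could be compared. The median log2 fold change (TO over testis) of the genes compared was 0.85 in stromal-like and 1.15 in myoid-like cells, where all genes compared had medians of 0.10 and 0.09. It was -0.04 in spermatogonia-like cells (all genes, 0.02). In Sertoli-like cells the median of the 3 genes compared was 0.64 and that of the 6 with enough UMIs -0.46, and in Leydig-like cells the median of 2 was -0.19 and that of 7 was 0.25, so the sign there depended on which genes were left out. Both directions were thus called within the list. A fit without 1 library leaves 1 in a group, so a call lost there does not show that it rested on that library. In these fits the genes called kept their direction. Log2 fold changes ran from 1.22 to 4.55 for the 3 genes in myoid-like cells. In stromal-like cells they ran from 1.44 to 2.30 for Mest and Plagl1 and from -2.08 to -1.42 for Meg3. In Sertoli-like cells they ran from 1.81 to 3.01 for Mest and from -1.82 to -1.36 for Peg3, and in spermatogonia-like cells from -2.58 to -2.28 for Dlk1. With free RNA subtracted from the sums, edgeR called 0 of the 9, and 0 of all genes, in Sertoli-like, myoid-like and stromal-like cells, while the genes called before kept their direction. The subtraction removed 64.6% and 44.2% of the stromal-like and 66.5% and 56.6% of the myoid-like UMIs of TOs. These sums of TOs hold few spermatid markers. With free RNA subtracted in testes alone, 0 of all genes were called in myoid-like and stromal-like cells and 1 of 11745 in Sertoli-like cells. The part of free RNA in the calls was not tested.

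**Figure D2:**
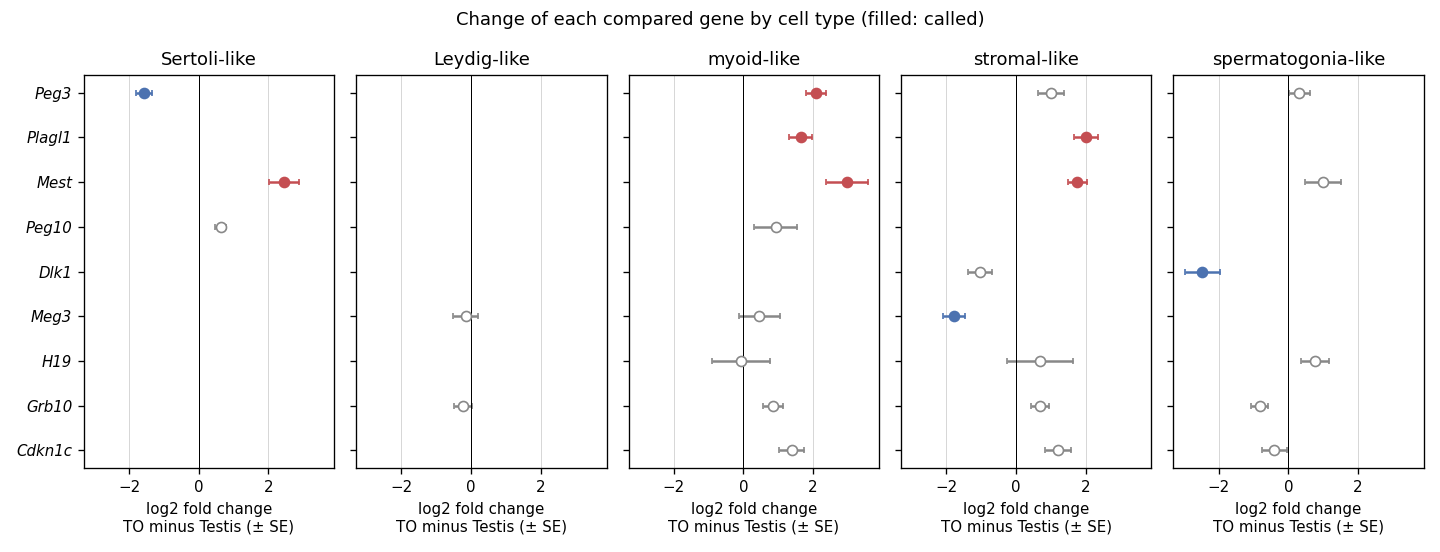
Log2 fold change of TOs over testes (horizontal axis) for each gene compared, in 1 panel per cell type, with bars of 1 standard error from edgeR. Filled points passed the call rule (red higher in TOs, blue lower), with Peg3, Mest and Plagl1 above 0 in myoid-like cells (1.65 to 2.96) and Meg3 in stromal-like cells (-1.78), Peg3 in Sertoli-like cells (-1.56) and Dlk1 in spermatogonia-like cells (-2.47) below it.

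Mest, an enzyme-like protein of the alpha/beta hydrolase fold named for its expression in embryonic mesoderm, was higher in TOs in all 3 somatic types in which it was compared. In stromal-like cells Mest stood at 34.3 and 38.6 CPM in TO 1 and TO 2 and at 11.4 and 11.6 CPM in Testis 1 and Testis 2. Both TO libraries lay about 3 times above both testis libraries, and the log2 fold change was 1.77 ± 0.28 (SE, n = 2 and 2, edgeR adjusted p = 0.00462). In myoid-like cells Mest was at 13.1 and 19.7 CPM in TOs and at 3.24 and 0.690 CPM in testes, a log2 fold change of 2.96 ± 0.60 (edgeR adjusted p = 0.00573). The larger myoid-like cluster held Mest at 13.4 and 19.1 CPM in TOs and at 4.69 and 1.01 CPM in testes (6 UMIs and 1), and in it alone Mest did not pass the call rule. The vascular muscle cluster led by Rgs5 held 7.63 and 27.7 CPM in TOs and 0 UMIs in both testes, which allows up to 5.21 and 6.54 CPM.
In Sertoli-like cells Mest was at 25.9 and 38.7 CPM in TOs and at 4.24 and 9.43 CPM in testes, again without overlap (log2 fold change 2.45 ± 0.43, edgeR adjusted p = 0.00447). In Leydig-like cells its level was lower, 4.14 and 8.19 CPM in TOs (76 and 153 UMIs) against 0.280 CPM and 0 in testes (1 UMI and 0). The pooled ratio was 43.2, with a counting interval from 7.68 to 1715, but Mest was left out of the test there because other cells held more of it. With no gene left out, its edgeR adjusted p in Leydig-like cells was 0.00814. The myoid call was also lost with cells named by their own marker scores and with genes left out from 2 times. The calls of Mest in stromal-like and myoid-like cells were lost without Testis 1 (log2 fold changes 1.80 and 4.55) and without Testis 2 (1.73 and 2.30), and that in Sertoli-like cells was lost without Testis 1 (1.81) and in the largest cluster alone (2.92).

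Plagl1, a zinc finger transcription factor that slows cell division and activates other imprinted genes, was higher in TOs in the stromal and myoid cells but not in the others. In stromal-like cells Plagl1 stood at 113 and 193 CPM in TO 1 and TO 2 and at 36.9 and 45.8 CPM in Testis 1 and Testis 2. The groups did not overlap, and the log2 fold change was 2.01 ± 0.34 (n = 2 and 2, edgeR adjusted p = 0.00624). The order held in each of the 3 stromal-like clusters, for instance at 117 and 188 CPM against 39.5 and 46.0 CPM (46 and 51 UMIs) in the largest, although in the cluster led by Cilp and Cxcl14 the testes held 1 and 2 UMIs of Plagl1, under the floor of 3. In myoid-like cells Plagl1 was at 61.2 and 103 CPM in TOs and at 22.1 and 31.0 CPM in testes (log2 fold change 1.65 ± 0.33, edgeR adjusted p = 0.00547).
In Leydig-like cells Plagl1 was at 11.8 and 12.8 CPM in TOs, within the testis values of 17.1 and 7.31 CPM. In Sertoli-like cells the order was the opposite, with 1.48 and 1.75 CPM in TOs and 11.2 and 21.8 CPM in testes. Plagl1 was left out of the test there because stromal and myoid cells held far more of it. With no gene left out the log2 fold change was -3.23 ± 0.48 (edgeR adjusted p = 0.0017). Of the 30 UMIs of Plagl1 in Sertoli-like cells of Testis 2, 29 lay in a cluster of 104 cells that no other library supplied. In the largest Sertoli-like cluster Plagl1 was at 0.968 and 1.61 CPM in TOs and at 11.98 CPM in Testis 1, while the 0 UMIs of Testis 2 there allow up to 9.23 CPM and cannot be placed against TOs. The calls of Plagl1 in stromal-like cells were lost without Testis 1 (1.90) and without Testis 2 (2.11), and that in myoid-like cells likewise (1.41 and 1.85), as well as with doublets kept (2.33) and in the largest cluster alone (1.22). With doublets kept the myoid-like class was the vascular muscle cluster, of 67 and 78 cells in TO 1 and TO 2.

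Peg3, a zinc finger protein that acts in cell survival and maternal behaviour, differed in opposite directions in myoid-like and Sertoli-like cells. In myoid-like cells Peg3 stood at 90.8 and 121 CPM in TO 1 and TO 2 and at 29.7 and 20 CPM in Testis 1 and Testis 2. The TO libraries were at least 3 times above either testis library (log2 fold change 2.08 ± 0.29, n = 2 and 2, edgeR adjusted p = 0.000859). In Sertoli-like cells Peg3 stood at 30.2 and 21.1 CPM in TOs and at 91.4 and 68.2 CPM in testes, and the TO libraries were the lower ones (-1.56 ± 0.23, edgeR adjusted p = 0.00195). In the largest Sertoli-like cluster alone that difference did not pass the call rule (-1.21), and in this cluster Testis 2 held 7 UMIs of Peg3 (21.5 CPM) beside 15420 CPM of spermatid markers. Of the 94 UMIs of Peg3 in Sertoli-like cells of Testis 2, 87 came from the cluster of 104 cells that this library alone supplied.
In stromal-like cells Peg3 stood at 90.7 and 165 CPM in TOs and at 78.8 and 58.2 CPM in testes. TO 1 was close to Testis 1, and the log2 fold change of 1.01 ± 0.37 did not pass (edgeR adjusted p = 0.0923). Leydig-like cells held 16.2 and 12.5 CPM in TOs and 15.1 and 7.89 CPM in testes. Spermatogonia-like cells held 42.9 and 22.0 CPM against 24.3 and 26.3 CPM, and here the groups overlapped. In myoid-like cells the call of Peg3 was lost without Testis 1 (2.41) and without Testis 2 (1.80), with the direction kept.

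Peg10, derived from a retrotransposon and needed for the placenta, was mostly a Sertoli gene here. Sertoli-like cells held 99.4 and 103 CPM in TO 1 and TO 2 and 72.1 and 65.3 CPM in Testis 1 and Testis 2. TOs lay above testes without overlap, but the log2 fold change of 0.64 ± 0.16 fell short of the call rule (n = 2 and 2, edgeR adjusted p = 0.0158). In stromal-like cells Peg10 was at 9.67 and 2.69 CPM in TOs and at 1.42 and 1.55 CPM in testes, and it was left out there because Sertoli-like cells held more. Sertoli markers in the same stromal-like sums stood at 581 and 267 CPM in TOs and at 122 and 112 CPM in testes, and their part in the Peg10 values was not tested. Myoid-like cells held 8.04 and 3.57 CPM in TOs and 3.24 and 2.76 CPM in testes.

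Dlk1, a membrane protein related to Notch ligands that holds precursor cells undifferentiated, was not higher in TOs in any type compared. In stromal-like cells Dlk1 stood at 12.2 and 19.7 CPM in TO 1 and TO 2 and at 37.6 and 32.6 CPM in Testis 1 and Testis 2. Both TO libraries were below both testes, while the log2 fold change of -1.02 ± 0.35 did not pass (n = 2 and 2, edgeR adjusted p = 0.0747). In spermatogonia-like cells Dlk1 was at 1.42 and 1.69 CPM in TOs and at 8.01 and 8.99 CPM in testes, and it was called lower (-2.47 ± 0.50, edgeR adjusted p = 0.00601). In the same sums Sertoli markers stood at 241 and 93.4 CPM in TOs and 43.1 and 31.8 CPM in testes, spermatid markers at 8.34 and 12.4 against 1609 and 2090 CPM, and Stra8, a gene of entry into meiosis, at 650 and 805 against 186 and 191 CPM. Their part in the Dlk1 result was not tested. That call was lost when any 1 library was removed, at log2 fold changes from -2.58 to -2.28. In myoid-like cells TO 2 held 62 UMIs of Dlk1, all in 17 cells, whereas TO 1 and Testis 1 held 1 UMI each and Testis 2 held 0.

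Meg3 is a long noncoding RNA transcribed next to Dlk1 from the other parental copy. It was the most abundant of the 9 genes in stromal cells of testes and was lower in those of TOs. In stromal-like cells Meg3 stood at 148 and 172 CPM in TO 1 and TO 2 and at 699 and 476 CPM in Testis 1 and Testis 2. Both TO values were well below either testis value, and the log2 fold change was -1.78 ± 0.31 (n = 2 and 2, edgeR adjusted p = 0.00681). The direction was the same in each of the 3 stromal-like clusters, for instance 207 and 174 CPM against 1141 and 611 CPM in the cluster led by B3galt1 and Gpc6. Rian, a noncoding RNA of the same maternally expressed cluster, stood at 17.4 and 26.4 CPM in TOs and at 92.3 and 96.2 CPM in testes (-1.99 ± 0.29, edgeR adjusted p = 0.00312).
Leydig-like cells held overlapping levels of Meg3, 282 and 146 CPM in TOs and 268 and 183 CPM in testes (-0.15 ± 0.36, edgeR adjusted p = 0.822). Myoid-like cells held 19.2 and 42.8 CPM in TOs and 35.1 and 8.97 CPM in testes, with overlap. Within them the vascular muscle cluster held 185 and 413 CPM in TOs and 83.3 and 28.3 CPM in testes, the opposite order to the stromal-like cells. Without Testis 1 the call of Meg3 in stromal-like cells was lost (-1.42).

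H19, a noncoding RNA that is among the most abundant transcripts of the fetus, was low in all types, and passed the minimum for a test in myoid-like, stromal-like and spermatogonia-like cells. Stromal-like cells held 5.12 and 13.3 CPM in TO 1 and TO 2 and 11.4 and 0.776 CPM in Testis 1 and Testis 2. The groups overlapped, and the log2 fold change of 0.69 ± 0.94 was smaller than its error (n = 2 and 2, edgeR adjusted p = 0.619). Its sign turned without TO 2 (-0.28) and without Testis 2 (-0.21). Myoid-like cells held 2.19 and 11.7 CPM in TOs and 10.25 and 4.14 CPM in testes. Spermatogonia-like cells held 13.03 and 10.72 CPM in TOs and 7.09 and 6.22 CPM in testes, without overlap but not past the test. Igf2, the fetal growth factor beside H19, was at 36.8 and 42.0 CPM in stromal-like cells of TOs and at 49.0 and 59.7 CPM in those of testes (edgeR adjusted p = 0.277).

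Grb10, an adaptor protein that damps signalling from the insulin and IGF1 receptors, was abundant in stromal and myoid cells of both groups. Stromal-like cells held 141 and 182 CPM in TO 1 and TO 2 and 93.0 and 123 CPM in Testis 1 and Testis 2. TOs were higher in both libraries, and the log2 fold change of 0.69 ± 0.25 did not pass (n = 2 and 2, edgeR adjusted p = 0.0855). Myoid-like cells held 102 and 172 CPM in TOs and 77.7 and 75.9 CPM in testes (0.84 ± 0.30, edgeR adjusted p = 0.0569). The myoid value turned to between -0.19 and -0.076 in the alternatives in which the myoid-like class was the vascular muscle cluster. Leydig-like cells held 62.0 and 78.8 CPM against 71.4 and 85.6 CPM, and spermatogonia-like cells 26.9 and 37.8 CPM against 50.8 and 60.1 CPM (-0.82 ± 0.25, edgeR adjusted p = 0.0531).

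Cdkn1c, the cyclin-dependent kinase inhibitor p57 that takes precursor cells out of division, was nominally higher in TO stroma. Stromal-like cells held 30.6 and 40.8 CPM in TO 1 and TO 2 and 11.4 and 22.5 CPM in Testis 1 and Testis 2. The groups did not overlap, and the log2 fold change of 1.21 ± 0.36 did not pass (n = 2 and 2, edgeR adjusted p = 0.0521). Myoid-like cells held 21.5 and 23.8 CPM in TOs and 10.8 and 6.21 CPM in testes (1.38 ± 0.37, edgeR adjusted p = 0.0202). The myoid value turned to -0.10 with doublets kept, where the myoid-like class was the vascular muscle cluster. It turned to -0.41 with cells named by their own marker scores. Leydig-like cells held 8.99 and 6.53 CPM in TOs and 2.80 and 6.43 CPM in testes. Of these TO UMIs, 77 of 165 and 62 of 122 lay in a Leydig-like cluster of 283 cells in each TO library and 3 and 4 cells in testes. In the main Leydig-like cluster Cdkn1c was at 5.54 and 3.95 CPM in TOs and at 2.81 and 6.45 CPM in testes, with overlap. Spermatogonia-like cells held 11.2 and 11.8 CPM against 13.2 and 16.6 CPM.

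Whether the TO effect differed between cell types was tested as the difference between the effects in 2 types, and this was called for Peg3 and Plagl1 alone among the 9. Between Sertoli-like and stromal-like cells 8.91% of all genes were called, and 2 of the 9 were among them. Peg3 differed by -2.26 ± 0.42 on the log2 scale (edgeR adjusted p = 0.00144), and Plagl1 by -4.84 ± 0.56 (edgeR adjusted p = 2.02e-05), both lower in the Sertoli-like cells. Between Sertoli-like and Leydig-like cells 10.1% of all genes were called, and of the 9 Plagl1 was called (-2.996 ± 0.57, edgeR adjusted p = 0.00124). Between Leydig-like and stromal-like cells 5.54% of all genes were called and 0 of the 9 (3 at an unadjusted p below 0.05), the closest being Plagl1 (-1.84, edgeR adjusted p = 0.0135) and Meg3 (1.81, edgeR adjusted p = 0.0218). Between myoid-like and stromal-like cells 1.06% were called and 0 of the 9 (3 at an unadjusted p below 0.05), with Meg3 closest (2.28, edgeR adjusted p = 0.0446). The call for Peg3 was lost without Testis 1 (-2.25) and without Testis 2 (-2.24), and that for Plagl1 against Leydig-like cells without Testis 2 (-2.10). In these fits genes that other cells held more of were not left out. On simulated counts the test of Sertoli-like against stromal-like effects recovered 33.5% of genes with a log2 difference of 3. A gene that was not called may therefore still differ.

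**Figure D3:**
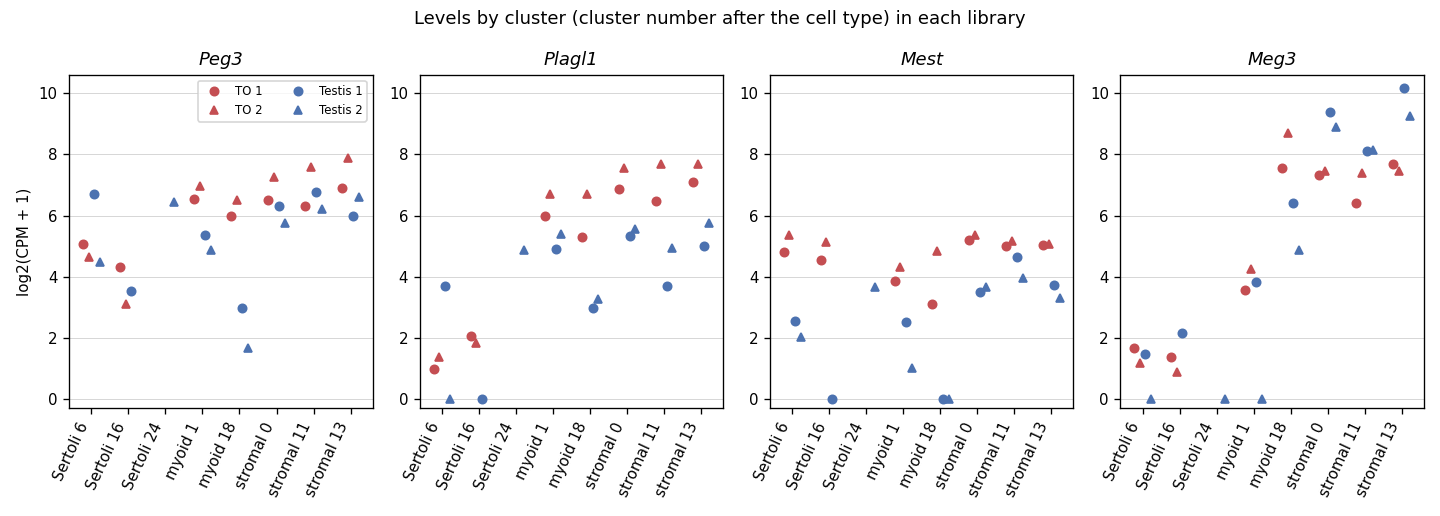
Levels of Peg3, Plagl1, Mest and Meg3 (log2 of CPM plus 1) in the larger Sertoli-like, myoid-like and stromal-like clusters, numbered as they came from the clustering, with 1 point per library. Plagl1 is higher and Meg3 lower in both TO libraries than in both testes in each stromal-like cluster, and the Sertoli-like cluster of 104 cells has a point from Testis 2 alone.

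Single cells were compared after each had been thinned to 1500 UMIs, because TO cells were deeper. A stromal-like cell then held a UMI of 0.742 and 0.967 of the 9 genes on average in TO 1 and TO 2, and of 0.925 and 0.843 in Testis 1 and Testis 2. The groups overlapped, with a difference of -0.0297 genes per cell (TO 0.854 ± 0.159, testis 0.884 ± 0.0578, SD, n = 2 and 2, exact two-sided permutation p = 1, where the smallest possible is 0.33). Without thinning the difference was 0.862 genes per cell (2.13 in TOs and 1.27 in testes). Myoid-like cells held 0.425 and 0.633 genes in TOs and 0.229 and 0.169 in testes. Sertoli-like cells held 0.237 and 0.205 against 0.209 and 0.168, and Leydig-like cells 0.405 and 0.314 against 0.428 and 0.373. Macrophage-like cells, which should lack these genes, held at most 0.0307, at median depths of 3069.5 to 6326.5 UMIs before thinning, against 2226.5 to 6740 in stromal-like cells. Thinning left out 39 and 7 stromal-like cells of TOs and none of testes.

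The genes behind this number differed between the groups. Meg3 had a UMI in 16% of cells (95% exact binomial interval 14.7 to 17.4%) and 18.6% (17.3 to 19.9%) in TO 1 and TO 2, and in 56.3% (52.3 to 60.3%) and 46.8% (41.9 to 51.7%) in Testis 1 and Testis 2. Plagl1 had a UMI in 14.6% and 21.9% of TO cells and in 5.50% and 5.94% of testis cells. Shares of macrophage-like cells with a Meg3 UMI were 0.289% or less, and with a Plagl1 UMI 0.383% or less. Dlk1 ran with Meg3, at 1.10% and 1.61% in TOs and 4.50% and 2.85% in testes. Mest ran with Plagl1, at 4.62% and 5.14% against 2.00% and 1.19%. Peg3 was in 12.4% and 19.1% of TO cells and in 9.33% and 8.79% of testis cells, and Grb10 in 19.2% and 22.6% against 11.5% and 15.2%. Intervals cover counting error only.

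**Figure D4:**
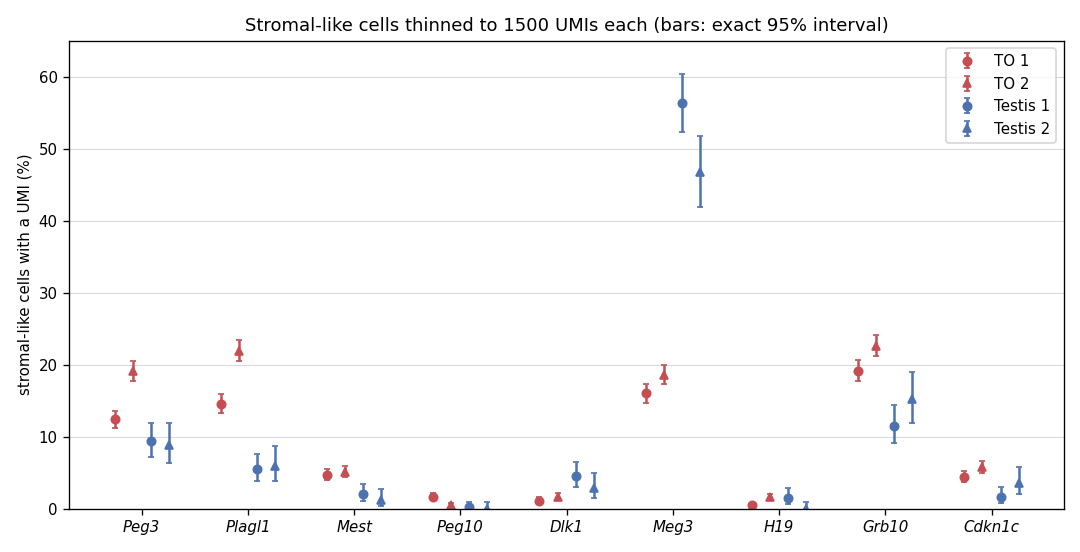
Share of stromal-like cells with at least 1 UMI of each gene (percent) in each library, after thinning to 1500 UMIs per cell, with bars for the 95% exact binomial interval (counting error only). Meg3 and Dlk1 are higher in both testis libraries, and Plagl1, Mest, Peg3 and Grb10 in both TO libraries.

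For comparison, 32 other imprinted genes were listed beside these 9, and their counts are read against the shares of all genes given above. In Sertoli-like cells 14 were compared and 2 were called higher, Ndn, a repressor of cell division, and Airn, a noncoding RNA. Ndn stood at 33.9 and 30.5 CPM in TOs and at 3.86 and 1.45 CPM in testes (log2 fold change 3.52 ± 0.36, edgeR adjusted p = 0.000428). In stromal-like cells 24 were compared and Rian alone was called, lower as given above. In myoid-like cells 20 were compared, Slc38a4, an amino acid transporter, was called higher (12.7 and 17.6 against 1.62 and 4.14 CPM), and Asb4 and Mcts2 were called lower. Of 20 compared in Leydig-like cells edgeR called 0 (4 at an unadjusted p below 0.05), Mcts2 was called lower among 6 in macrophage-like cells, and Phlda2 was called lower among 16 in spermatogonia-like cells. Of 15 growth genes that are not imprinted, 8 were compared in Sertoli-like and in Leydig-like cells, 6 in macrophage-like, 10 in myoid-like, 9 in stromal-like and 14 in spermatogonia-like cells. Sox4, a transcription factor of immature cells, was called higher in stromal-like cells (40.6 and 47.6 against 7.81 and 4.65 CPM) and in Leydig-like cells (112 and 122 against 27.7 and 30.1 CPM). Hmga2 and Ezh2 were called lower in myoid-like cells and Igf2bp3 lower in spermatogonia-like cells.

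The genes most like each of the 9 were found by the Pearson correlation of log levels over 36 sums (9 cell types in 4 libraries), among 11103 genes, as a description. Meg3 was most like Rian (r = 0.934), then Tspan11 and Creb3l1. Peg10 was most like Cidea (r = 0.944), Peg3 like Gnai1 (r = 0.903), Grb10 like Tcf7l1 (r = 0.882), Plagl1 like Tnfaip6 (r = 0.865) and Mest like Arl4d (r = 0.852). Cdkn1c had no close match (Gria4, r = 0.646), and H19 and Dlk1 were under the minimum level. Among the 9 themselves the closest pair was Meg3 and Plagl1 (r = 0.68), although they differed in opposite directions between TOs and testes in stromal-like cells. The sums of a library share its depth, and cell types are not independent.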

How the data were processed

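The authors deposited, for each library, a table of whole UMI counts by gene and barcode from Cell Ranger 7.1.0 (mm10). Each held 11826 to 14643 barcodes, before the filters below. Doublets were removed with Scrublet (scanpy 1.11.5) at 0.8% per 1000 barcodes in place of the DoubletFinder that the authors used. A barcode was kept if 1000 to 5000 genes were detected, its total did not pass 20000 and no more than 10% of it was mitochondrial. After log-normalization to 10000 UMIs, 2000 variable genes without the 9, 30 principal components, Harmony written for these data and Leiden clustering (leidenalg 0.10.2, resolution 1) gave clusters, which were named from marker lists. The authors' cell labels were not used here.

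Raw counts were summed per library and type and tested with edgeR 4.0.16 (TMM, filterByExpr, quasi-likelihood, Benjamini-Hochberg over all genes compared). Library totals were 106577822 and 119966959 UMIs in TOs and 77016449 and 74988295 in testes, so levels of a few CPM rest on few UMIs in small types. DESeq2 1.42.0, other size factors, filters, thinning, clusterings, left-out libraries and free RNA subtraction were the alternatives. That subtraction took the profile of all kept cells of a library, scaled to remove the spermatid markers, from each somatic sum. On simulated counts with a log2 fold change of 3, edgeR recovered 80% of changed genes for stromal-like (15579 genes) and 78% for myoid-like cells (15584 genes), and 41% and 42% at 1.5.

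Named genes were the 9, plus those of the lists of other imprinted and growth genes that were called. The members and lists were chosen with earlier results of these data known. Positions came from GENCODE vM21, which held 32158 of the 32285 gene IDs, and promoters from RefSeq.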

Additional observations from a re-analysis of the deposited data

Results flagged for a closer look

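The TO effect on 2 of the 9 genes differed between cell types by a test of the difference itself. That test called 8.91% of all genes between Sertoli-like and stromal-like cells and 10.1% between Sertoli-like and Leydig-like cells. Peg3 differed by -2.26 on the log2 scale between Sertoli-like and stromal-like cells, being lower in TOs in the first (30.2 and 21.1 against 91.4 and 68.2 CPM) and not in the second (90.7 and 165 against 78.8 and 58.2 CPM). Plagl1 differed by -4.84 between Sertoli-like and stromal-like cells, and this call held when each library was left out in turn. Plagl1 also differed by -2.996 between Sertoli-like and Leydig-like cells, which was lost without Testis 2 (-2.10) and with doublets kept (-1.90). Sertoli-like cells held Plagl1 at 1.48 and 1.75 CPM in TOs and 11.2 and 21.8 CPM in testes, beside stromal markers at 179 and 130 CPM in TOs and 29.7 and 10.9 CPM in testes, so Plagl1 and the stromal markers ran in opposite directions there. Of the 30 UMIs of Plagl1 in Sertoli-like cells of Testis 2, 29 came from a cluster of 104 cells found in no other library. The fits without Testis 2 lack this cluster along with the rest of that library, and its part alone was not tested.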

How the results depend on the processing

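Of the values of single genes under the alternatives, 418 kept direction and call, 49 lost the call, 11 gained it and 9 changed sign. Of the counts and the mean per cell, 110 stayed within 1.5 times (or 1 SD) and 32 moved. The 110 include counts of 0 that stayed 0, in Leydig-like cells with 2 genes compared and in macrophage-like cells with none. Those of macrophage-like cells say nothing of stability. The cause was not tested unless named. The number of the 9 called in Sertoli-like cells went from 2 to 1 with genes left out from 2 times (Peg3 being left out itself). There 1070 of 9364 genes were called. The number went to 0 with free RNA subtracted in all libraries or in testes alone, where 0 of 11080 and 1 of 11745 genes were called. In the largest cluster it was 0, and 0 of all 12277 genes were called. Both genes kept their direction in these alternatives. That in Leydig-like cells went from 0 to 1 with no gene left out, where 2223 of 15476 genes were called. That in myoid-like cells went from 3 to 0 with either subtraction, where 0 of all genes were called. That in stromal-like cells went from 3 to 5 with genes of any count (3944 of 17595 genes called). It went to 1 with genes left out from 2 times (705 of 11166 genes called). With either subtraction it went to 0, and 0 of all genes were called. That in spermatogonia-like cells went from 1 to 0 with DESeq2, genes left out from 2 times or resolution 0.5. These called 962 of 12218, 5 of 9511 and 1443 of 10702 genes. Counts of calls without 1 library are not given, because these fits leave 1 library in a group. The 3 differences between types became 5 with RLE factors or resolution 0.5, 7 with thinned sums, doublets kept or the 9 genes used for clustering, and 2 to 8 without 1 library. The difference in genes per stromal-like cell, -0.0297, became 0.862 without thinning, where TO cells were deeper, and ran from -0.142 to 0.0828 without 1 library.

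Signs changed for Cdkn1c in myoid-like cells (-0.10 with doublets kept, -0.41 with cells named by their own scores), for Grb10 in myoid-like cells (-0.076 with no upper limits, -0.092 with doublets kept, -0.11 with the 9 used for clustering, -0.19 at resolution 0.5), and for H19 in stromal-like cells (-0.28 without TO 2, -0.21 without Testis 2, -0.048 with subtraction in testes, and up to 3.74 without 1 library). In the alternatives that turned Grb10, and with doublets kept for Cdkn1c, the myoid-like class was the vascular muscle cluster. The largest cluster and the subtraction in testes were chosen after seeing the data. The planned subtraction removed 64.6% and 44.2% of the stromal UMIs of TOs. Without Harmony no myoid-like class with all libraries was found, so that fit was not run. No source pairs the replicate numbers, and same-numbered deviations correlated at 0.033 to 0.168. With a replicate block the counts were 2, 0, 0, 4, 4 and 1 in Sertoli-, Leydig-, macrophage-, myoid-, stromal- and spermatogonia-like cells. Cdkn1c was added in myoid-like (1.38) and stromal-like cells (1.23). Of all genes, in the same order, 3422 of 12697, 56 of 12194, 2023 of 9885, 3813 of 14306, 3368 of 14308 and 1357 of 12218 were called. With 2 libraries a group the spread is poorly known, and genes with few UMIs, such as Mest in Leydig-like cells of testes, are also limited by depth.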

Other observations

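Later germ cells, which were named coarsely as spermatid-like, differed between the testis libraries in Cdkn1c. Testis 2 held 3254 UMIs of Cdkn1c there (96.7 CPM) and Testis 1 held 325 (11.5 CPM). After thinning to 1500 UMIs a UMI of Cdkn1c was found in 9.85% of these cells in Testis 2 and in 1.70% in Testis 1 (25.01% and 3.85% without thinning). The cells lay in different clusters, of which one held 2086 cells of Testis 2 and 723 of Testis 1 and another 389 and 1. The few TO cells of this class go against its name, with 3017 CPM of Sertoli markers against 82.4 CPM of spermatid markers in TO 1 and 2937 CPM of spermatocyte markers against 286 CPM in TO 2, so their levels are not given.

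The cells named endothelial-like held Mest at 185 and 78.4 CPM in TOs and 12.2 and 16.8 CPM in testes, and Grb10 at 10.1 and 4.28 CPM in TOs and 114 and 161 CPM in testes, but their TO members carried few endothelial markers.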
